A study of Homo sapiens with 18 samples.

Results

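The genes described here are 10 named components of transforming growth factor beta (TGF-β) signalling, among 58302 genes in the expression table: the ligands TGFB1 and TGFB2, the receptors TGFBR1 and TGFBR2, the signal-transducing SMAD2 and SMAD3, the inhibitors SMAD7 and SKIL, the latency protein LTBP1 and the secreted target TGFBI. They were taken by name and joined to the files by Ensembl identifier, and all 10 passed the filter on low expression that left 12982 genes to test. They were followed in PANC-1 cells, an established human pancreatic ductal carcinoma line, that stably carried a lentiviral short hairpin RNA against NAT10 (shNAT10) or a control hairpin (shCtrl). NAT10 is the acetyltransferase that writes N4-acetylcytidine (ac4C) on RNA. The comparison asks how transcript levels and ac4C enrichment differed between knockdown and control cells. There is a single knockdown group, and the sample titles do not say which hairpin it carried. Effects of losing NAT10 and other effects of the hairpin or infection cannot be told apart. RNA-seq was done on 3 libraries per group. For acRIP-seq, in which fragmented RNA is pulled down with an antibody to ac4C and sequenced beside input RNA, each group had 3 IP libraries with their inputs but is represented by 1 peak list.

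TGF-β is secreted in a latent complex, held inactive by its own propeptide and tethered to the extracellular matrix by latent TGF-β binding proteins. Once released, the ligand brings together the type II receptor TGFBR2 and the type I receptor TGFBR1, a pair of serine/threonine kinases, and TGFBR1 phosphorylates SMAD2 and SMAD3, which enter the nucleus with SMAD4 and switch target genes. SMAD7 blocks the receptor and SKIL represses SMAD complexes on DNA. In pancreatic ductal carcinoma the pathway is known both for growth arrest of epithelial cells and for invasion and epithelial-mesenchymal transition, and SMAD4 is often lost in these tumours.

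On the longest coding transcript, the acRIP peaks of the 2 groups covered the same bases at 6 stretches within coding sequence, in 5 of the genes. These are shown because both lists enriched them. Shared bases off that transcript are left out. The peaks shared 211 bases at the 141-base TGFB1 stretch and 210 bases at the 207-base LTBP1 stretch. A shared TGFBR1 stretch that runs past the stop codon is not shown. The stretches shown are spliced sequences of the longest coding transcript (GENCODE release 29, GRCh38), written 5′ to 3′, so that introns inside the coordinates are left out. Capitals mark each run of 4 or more triplets that start with C, CNNCNNCNNCNN on the transcript strand, where N is any base; the C-plus-2-bases repeat is a sequence context known for ac4C. Overlapping matches are merged in the capitals.
TGFB1 (chr19:41344838-41348418, minus strand, 151 bases): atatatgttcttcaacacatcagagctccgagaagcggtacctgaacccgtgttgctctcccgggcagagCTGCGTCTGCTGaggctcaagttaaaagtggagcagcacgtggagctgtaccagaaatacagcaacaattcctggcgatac
TGFB1 (chr19:41341890-41342030, minus strand, 141 bases): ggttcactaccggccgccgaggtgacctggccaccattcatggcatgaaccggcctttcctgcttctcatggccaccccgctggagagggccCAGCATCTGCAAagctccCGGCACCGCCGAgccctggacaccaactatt
TGFBR1 (chr9:99147717-99147777, plus strand, 61 bases): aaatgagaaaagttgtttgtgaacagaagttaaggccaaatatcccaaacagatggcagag
TGFBR2 (chr3:30671955-30672105, plus strand, 151 bases): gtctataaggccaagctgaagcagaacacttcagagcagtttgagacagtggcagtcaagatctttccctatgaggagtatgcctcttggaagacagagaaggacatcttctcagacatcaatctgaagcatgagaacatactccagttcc
SMAD2 (chr18:47868393-47868422, minus strand, 30 bases): atcctaacagaaCTTCCGCCTCTGgatgac
LTBP1 (chr2:33262766-33273707, plus strand, 207 bases): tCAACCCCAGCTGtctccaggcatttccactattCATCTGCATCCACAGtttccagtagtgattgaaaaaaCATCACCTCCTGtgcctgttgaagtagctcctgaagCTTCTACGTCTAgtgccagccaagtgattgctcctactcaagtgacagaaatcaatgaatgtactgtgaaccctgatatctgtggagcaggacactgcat
Of the 6 stretches, 4 held the repeat and 2, in TGFBR1 and TGFBR2, did not. The repeat is common: it was present in 51.5% of the shCtrl peaks and 50.7% of the shNAT10 peaks that lay wholly on a longest coding transcript, and for the 10 genes in 6 of 11 and 7 of 21 such peaks.

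FPKM values are read counts scaled to transcript length and library size. The library sizes used in that scaling, recovered from the steps of the values, ran from 15831720 to 23521762. Recovered reads on genes came to slightly more, from 15964222 to 23718070. NAT10 itself measured 31.6, 27.7 and 28.6 FPKM in the shCtrl libraries and 7.92, 8.43 and 7.90 FPKM in the shNAT10 libraries, 0.279 times the control level (log2 fold change -1.84, limma adjusted p = 3.85e-05). Of the duct epithelium markers, KRT8, KRT18 and KRT19 had mean levels of 1739, 1131 and 306 FPKM in shCtrl and were lower in shNAT10. KRT7, on the same list, measured only 8.62 ± 1.90 FPKM in shCtrl and 4.75 ± 0.378 FPKM in shNAT10. EPCAM, an epithelial surface protein also listed, was higher in shNAT10 (4.87 ± 0.783 against 22.6 ± 1.55 FPKM, log2 fold change 2.20). In every library, 4 of 6 fibroblast, 4 of 5 leukocyte, 2 of 3 endothelial and 4 of 4 Schwann cell markers stayed under 0.1 FPKM. The leukocyte marker above that level was CD14, at 2.53 ± 0.397 FPKM in shCtrl and 1.46 ± 0.112 FPKM in shNAT10. The summed fibroblast markers, mostly COL1A1, ranged from 29.6 to 34.7 FPKM in shCtrl and from 19.3 to 22.9 FPKM in shNAT10. COL3A1, on the same list, went the other way, from 0.776 ± 0.104 to 1.96 ± 0.105 FPKM (log2 fold change 1.24). The fibroblast markers under 0.1 FPKM were COL1A2, LUM, DCN and PDGFRB, and the labels name no cells but PANC-1. Which cells made the COL1A1 and COL3A1 RNA was not tested, nor was any part of other cells in the results. In bulk libraries fewer cells of a type and less RNA per cell cannot be told apart. Library shCtrl replicate 2 stood furthest from the others of its group. Relative to the other shCtrl libraries, its genes with transcripts of up to 2409 bases were higher by a median of 0.27 on the log2 scale. Those with transcripts over 4399 bases were lower, with a median of -0.23. For shCtrl replicate 1 the same medians went the other way, at -0.20 and 0.17. Each result is therefore also given without shCtrl replicate 2 where it changes. Leaving it out raised the calls over all 12982 tested genes from 5450 to 6621, so lower adjusted p-values without it were not particular to these genes. Nothing in the labels says that the replicates were separate cultures, so p-values measure only the spread between these libraries.

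At the level of RNA, the receptors and the matrix tether were higher in shNAT10, and the signal transducer SMAD3 and the target TGFBI were lower. Of the 10 genes, 3 were higher in shNAT10 (TGFBR1, LTBP1, TGFBR2), 2 were lower (SMAD3, TGFBI) and 5 were not called, at an adjusted p under 0.05 in limma. Calls were frequent among all tested genes, 20.8% higher and 21.2% lower (42.0% in either direction), so 5 of 10 was close to the background share. None of the 10 changed by more than 1 on the log2 scale, against 6.48% of all tested genes. The libraries of the 2 groups did not overlap for 7 of the genes, 3 higher and 4 lower, against 27.9% and 28.6% of all tested genes (56.5% in either direction). For these the exact two-sided permutation test of 3 against 3 gave p = 0.1, the smallest it can give.

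**Figure D1:**
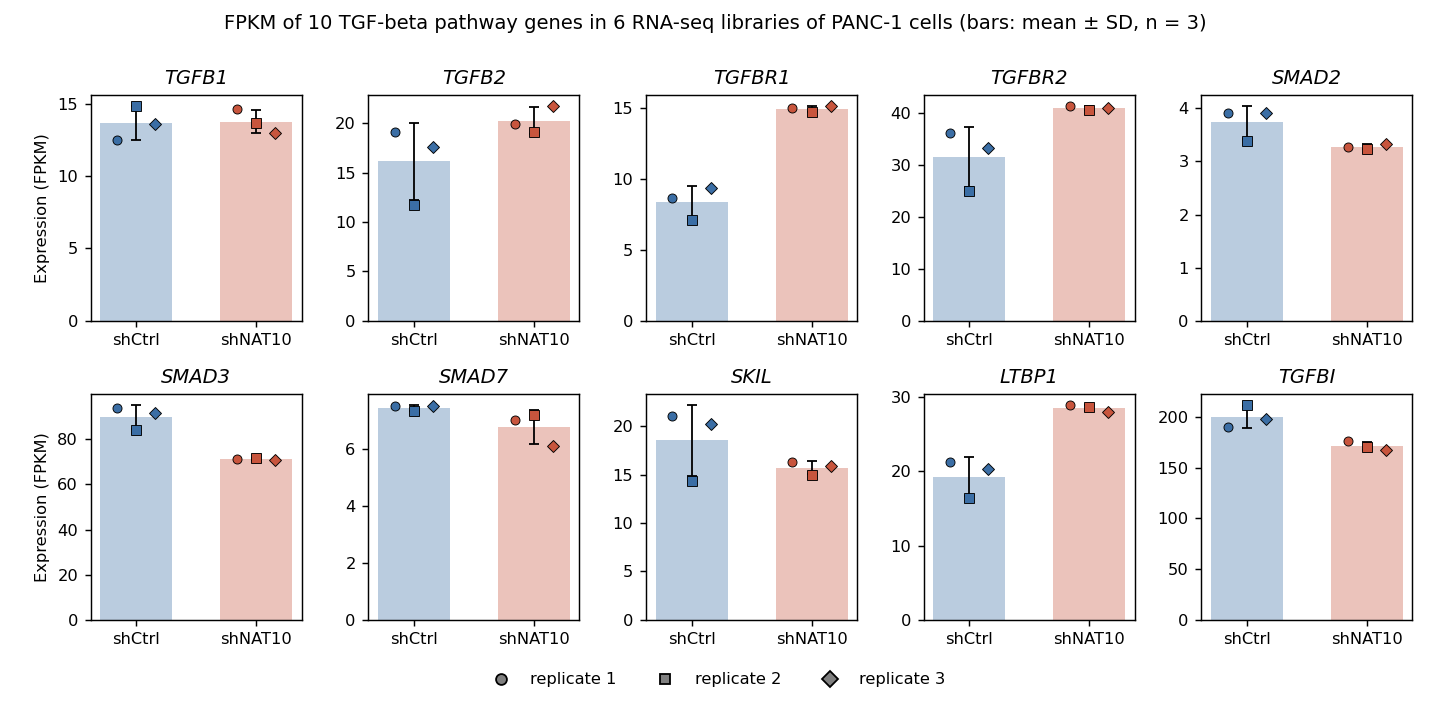
Expression in FPKM (vertical axis, from 0) of each gene in the 3 shCtrl and 3 shNAT10 libraries; points are libraries, bars are means and error bars are SD. TGFBR1, TGFBR2 and LTBP1 lie wholly above their shCtrl libraries in shNAT10, and SMAD2, SMAD3, SMAD7 and TGFBI lie wholly below them.

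Among the ligands, TGFB1, the most widely expressed TGF-β isoform (chr19:41301587-41353911), measured 12.5, 14.9 and 13.6 FPKM in shCtrl and 14.6, 13.7 and 13.0 FPKM in shNAT10. The groups overlapped, with means of 13.7 ± 1.18 and 13.8 ± 0.811 (SD, n = 3 libraries), a log2 fold change of 0.01 (95% interval -0.19 to 0.22) and an adjusted p of 0.916 in limma. TGFB2, the second isoform (chr1:218346235-218444619), measured 19.2, 11.8 and 17.6 FPKM in shCtrl and 19.9, 19.1 and 21.8 FPKM in shNAT10. The low value was that of shCtrl replicate 2, shCtrl replicate 1 lay within the shNAT10 range, and shCtrl replicate 3 lay below it. Its log2 fold change was 0.35 (95% interval -0.06 to 0.77, adjusted p = 0.149) and 0.14 without that library (adjusted p = 0.144). TGFB2 shares 26.6% of its exon bases with TGFB2-OT1 on the same strand; that gene was listed at 0 in all 6 libraries, so reads in the shared part cannot be divided between them. TGFB1 shares 6.64% of its exon bases with HNRNPUL1 on the opposite strand, and whether counting used strand is not given in the sources used here.

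The receptors gave the largest rise. TGFBR1, the type I kinase that phosphorylates SMAD2 and SMAD3 (chr9:99104038-99154192), measured 8.66, 7.09 and 9.34 FPKM in shCtrl and 15.0, 14.7 and 15.1 FPKM in shNAT10. Every shNAT10 library lay above every shCtrl library, and the shNAT10 libraries differed among themselves by far less than the shCtrl libraries. The level in shNAT10 was 1.79 times that in shCtrl (log2 fold change 0.84 ± 0.11 SE, adjusted p = 0.00119), and 0.73 on the log2 scale without shCtrl replicate 2 (adjusted p = 8.46e-05). TGFBR2, the ligand-binding type II kinase (chr3:30606502-30694142), measured 36.3, 25.0 and 33.4 FPKM in shCtrl and 41.4, 40.6 and 41.0 FPKM in shNAT10. The groups did not overlap, but its rise of 0.40 ± 0.13 SE on the log2 scale only just passed the threshold (adjusted p = 0.0497 in limma). The call was lost in 8 of 16 alternative fits, where the adjusted p reached 0.13, and without shCtrl replicate 2 the rise was 0.24 (adjusted p = 0.00757).

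The RNA of the SMADs that carry the signal was lower or not called. SMAD3, which binds DNA directly in the SMAD complex (chr15:67063763-67195195), measured 94.0, 83.9 and 91.8 FPKM in shCtrl and 71.3, 71.7 and 71.0 FPKM in shNAT10. All 3 shNAT10 libraries lay below all shCtrl libraries. The level was 0.794 times that in shCtrl (log2 fold change -0.33 ± 0.07 SE, adjusted p = 0.00716 in limma). Without shCtrl replicate 2 the log2 fold change was -0.38 (adjusted p = 0.00028 in limma). SMAD2, its partner in the same receptor-activated class (chr18:47808957-47931146), measured 3.92, 3.38 and 3.92 FPKM in shCtrl and 3.27, 3.24 and 3.32 FPKM in shNAT10. The groups did not overlap, yet the log2 fold change of -0.18 (95% interval -0.41 to 0.05) did not pass the test (adjusted p = 0.174). Without shCtrl replicate 2 it did, at -0.25 with an adjusted p of 0.0442. The FPKM of SMAD2 are per kilobase of an annotated transcript of 34526 bases and rest on 1786 to 3184 reads per library, so its level per length cannot be set beside that of genes with shorter transcripts.

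The inhibitors SMAD7 and SKIL were not called. SMAD7, the inhibitory SMAD that competes at the receptor (chr18:48919853-48952052), measured 7.51, 7.33 and 7.49 FPKM in shCtrl and 7.00, 7.20 and 6.08 FPKM in shNAT10. Its shNAT10 libraries lay below the shCtrl libraries, with a log2 fold change of -0.14 (95% interval -0.34 to 0.06, adjusted p = 0.231 in limma). Without shNAT10 replicate 3, the lowest library, it was -0.067 (adjusted p = 0.597), and without shCtrl replicate 2 it was -0.15 (adjusted p = 0.188). SKIL, also called SnoN, a repressor of SMAD-driven transcription (chr3:170357678-170396835), measured 21.0, 14.4 and 20.2 FPKM in shCtrl and 16.3, 15.0 and 15.9 FPKM in shNAT10. Here the lowest of the 6 values was shCtrl replicate 2, and the other shCtrl libraries lay above all shNAT10 libraries. The log2 fold change of -0.22 (adjusted p = 0.268) became -0.39 without that library (adjusted p = 0.00137) and -0.37 after a correction for transcript length (adjusted p = 0.00667).

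Among the genes for matrix-associated proteins, the RNA of LTBP1 rose and that of TGFBI fell. LTBP1, which tethers latent TGF-β to the matrix (chr2:32946972-33399509), measured 21.2, 16.3 and 20.3 FPKM in shCtrl and 28.9, 28.6 and 28.0 FPKM in shNAT10. The groups did not overlap and the level in shNAT10 was 1.48 times that in shCtrl (log2 fold change 0.57 ± 0.10 SE, adjusted p = 0.00518 in limma), or 0.46 on the log2 scale without shCtrl replicate 2 (adjusted p = 0.000285). LTBP1 and SMAD3 share 3.40% and 2.00% of their exon bases with genes on the opposite strand. TGFBI, a secreted matrix protein that TGF-β induces (chr5:136028895-136063818), was the most abundant of the 10 and measured 190, 212 and 198 FPKM in shCtrl and 176, 170 and 168 FPKM in shNAT10. It fell by 0.22 ± 0.07 SE on the log2 scale without overlap of the groups (adjusted p = 0.0309), but the call was lost in 9 of 16 alternative fits, where the adjusted p reached 0.124. Without shCtrl replicate 2 the log2 fold change of TGFBI was -0.18 (adjusted p = 0.0117 in limma). With values rescaled to TPM, which sum to the same total in each library, SMAD3 also missed the threshold (-0.22, adjusted p = 0.0914).

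**Figure D2:**
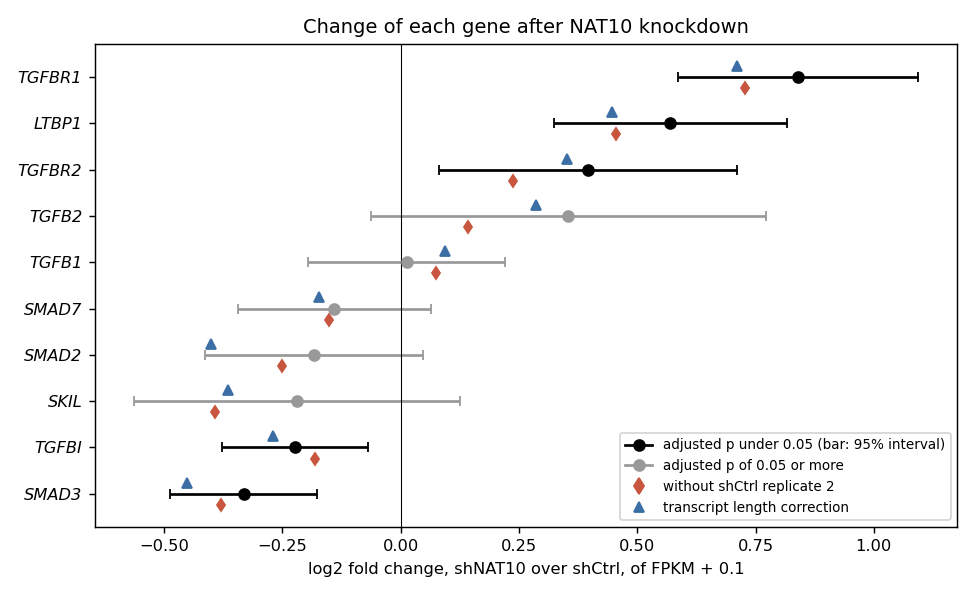
Log2 fold change of shNAT10 over shCtrl (horizontal axis, on FPKM + 0.1) for each gene, with the 95% interval, the value without shCtrl replicate 2 and the value after a correction for transcript length. TGFBR1 at 0.84 and LTBP1 at 0.57 stay above 0 and SMAD3 at -0.33 stays below 0 in all of them, and the intervals of TGFB1, TGFB2, SMAD2, SMAD7 and SKIL include 0.

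By mean FPKM per gene in shCtrl, the order ran from TGFBI (200) and SMAD3 (89.9) through TGFBR2 (31.5), LTBP1 (19.3), SKIL (18.5), TGFB2 (16.2) and TGFB1 (13.7) to TGFBR1 (8.36) and SMAD7 (7.44), leaving SMAD2 aside. The order depends on annotation, since FPKM are per kilobase of the longest annotated transcript. For TGFBI that transcript has 4661 bases, against 2804 in its longest coding transcript. Neighbours from LTBP1 to TGFB1 overlapped between libraries, as did TGFBR1 and SMAD7. TGFBR1 and TGFB1 changed places: all TGFBR1 values lay below all TGFB1 values in shCtrl, and in shNAT10 TGFBR1, at 15.0 ± 0.208 FPKM, lay above TGFB1, at 13.8 ± 0.811 FPKM, again without overlap. The profile across the 6 libraries nearest to that of TGFBR1, by Euclidean distance of centred log2 values, was that of VANGL1 (distance 0.118), followed by TOP2B (0.120) and PIGK (0.123), against a median distance of 1.17 over 12981 genes. Nearest to SMAD3 were NAPG (0.032), HNRNPK (0.042) and ZCCHC7 (0.059), against a median of 0.66.

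The other genes of the pathway were read from a list of 111, of which 78 passed the expression filter and 33 did not. In shNAT10, 25 of the 78 were lower, 14 were higher and 39 were not called, with a median log2 fold change of -0.08. That is 32.1% lower and 17.9% higher, against 21.2% and 20.8% and a median of -0.01 over all tested genes. Without shCtrl replicate 2 the counts were 30 lower and 16 higher, while the shares over all tested genes rose to 25.6% and 25.4%. Among the 39 called genes, 25 kept the call under every alternative fit, 4 (ACVR2A, DAB2, PTHLH and SPHK1) kept it wherever they were tested but were not tested at a minimum of 5 FPKM, and 10 lost it under at least 1, among them TGFBR3, ITGB8, LTBP4, WWP1, TGIF2 and COL4A1.

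The transcriptional targets held 15 lower and 5 higher calls of 28 tested (53.6% and 17.9%, against 21.2% and 20.8% of all tested genes), with a median of -0.48 on the log2 scale. Whether they differed from other roles was not tested. The target list was chosen with earlier results of these data known, so its shares are not independent of them. It was not divided into genes that TGF-β raises and genes that it lowers. CDKN1A, the p21 inhibitor of the cell cycle, fell from 46.6 ± 3.45 to 14.5 ± 0.694 FPKM (SD, n = 3; log2 fold change -1.67, limma adjusted p = 5.03e-05). SNAI1, a driver of epithelial-mesenchymal transition, fell by 1.20 on the log2 scale. ADAM19, a membrane metalloprotease, rose by 1.03. CTGF, chosen after its values were seen because it is a standard TGF-β readout, had a log2 fold change of -0.79. COL4A1, a basement membrane collagen and the second-largest rise among the targets, also chosen after its values were seen, rose by 0.93. PMEPA1, listed among the inhibitors and feedback genes and chosen in the same way, rose by 0.40 (limma adjusted p = 0.00945).

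Upstream of the targets the counts were small. Of 8 ligands, GDF15 (log2 fold change -1.07) and BMP4 (-0.50) fell and BMP7 (0.87) rose. Of 8 receptors, the activin receptor ACVR2A (-0.87), the co-receptor ENG (-0.76) and 1 other fell, and the co-receptor TGFBR3 (0.63) and the activin type I receptor ACVR1B (0.55) rose. Of 4 SMADs, inhibitory SMAD6 fell by 1.06 on the log2 scale. SMAD4, the shared partner of SMAD2 and SMAD3, measured 4.06, 4.19 and 4.47 FPKM in shCtrl and 3.62, 3.70 and 3.73 FPKM in shNAT10, with a log2 fold change of -0.20 (limma adjusted p = 0.0977). SMAD4 shares 7.37% of its exon bases with a same-strand gene.

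Of the inhibitors and feedback genes, 5 were higher and 2 lower of 12 (41.7% and 16.7%, against 20.8% and 21.2% of all tested genes). SKI, the closest relative of SKIL, rose from 11.7 ± 0.342 to 21.9 ± 0.576 FPKM (log2 fold change 0.89, limma adjusted p = 0.000148), and the ubiquitin ligase WWP1 and the repressor TGIF2 rose by 0.43 and 0.40. FSTL3, which binds activins, fell by 1.17. Of 7 latency and activation genes the integrin chain ITGB8 rose (0.71) and LTBP4, a relative of LTBP1, fell (-0.31). Of 11 cofactors and signalling partners only DAB2, an adaptor at the receptors, was called, with a log2 fold change of -1.37.

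**Figure D3:**
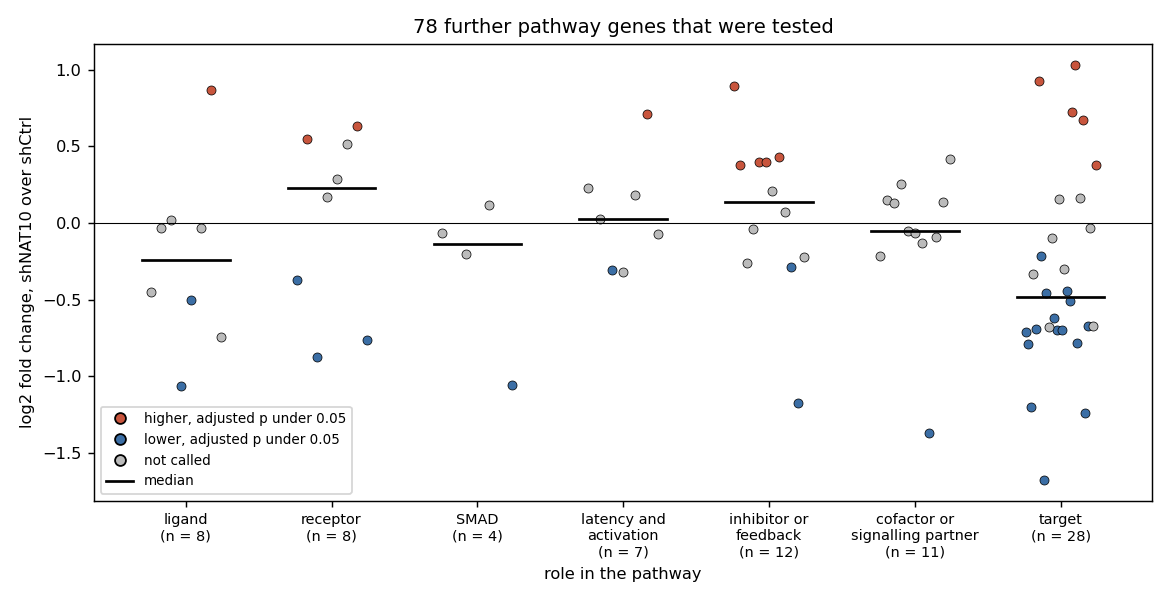
Log2 fold change of shNAT10 over shCtrl (vertical axis) of the 78 tested pathway genes outside the 10, by role; points are genes, coloured by call, and lines are medians. The 28 targets have a median of -0.48 with 15 lower calls, and the 12 inhibitors and feedback genes have 5 higher and 2 lower calls. The lists were chosen with earlier results of these data known.

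acRIP peaks, regions enriched by the ac4C antibody, were found on most of the genes in both groups. The authors describe acRIP-seq as prone to false positives and unable to place ac4C at single bases. Whether these peaks carry ac4C was not tested. The shCtrl list held 20 peaks and the shNAT10 list 25 peaks on the same 9 genes, TGFB2 having none in either. Peaks were common among expressed genes: 49.6% of all tested genes had a peak in shCtrl and 47.7% in shNAT10, rising to 54.1% and 51.8% at a mean of 3 to 30 FPKM and to 70.6% and 68.8% at 30 to 300 FPKM. With 1 list per group and no values per library, differences between the lists have no replicate check and were not tested, and a fold enrichment (IP over input) from one list is set beside the other only as deposited. Peaks of the 2 groups shared at least 1 base in 9 of 20 (45.0%) and 10 of 25 (40.0%) cases, against 25.5% and 27.2% of all peaks.

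Per gene, counts went both ways. TGFB1 had 6 peaks in shCtrl and 4 in shNAT10 and SMAD2 had 3 and 2. TGFBR1 had 2 and 4, TGFBR2 had 2 and 3, SMAD3 had 1 and 3, SKIL had 1 and 2, and LTBP1 had 2 and 4. SMAD7 (1) and TGFBI (2) had equal counts. By midpoint, 11 of the shCtrl peaks and 10 of the shNAT10 peaks lay in coding sequence, 5 and 12 in 3′ untranslated regions, 2 and 2 in the 5′ untranslated region of TGFB1, and 2 and 1 mostly on exons outside the longest coding transcript.

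The strongest TGFB1 peak had the same 241 bases in both lists, chr19:41353671-41353911 at the start of the 5′ untranslated region, with a fold enrichment of 587 in shCtrl and 540 in shNAT10. In its coding sequence the printed 141-base stretch belonged to peaks of 117-fold in shCtrl and 33.1-fold in shNAT10, and the 151-base stretch to peaks of 3.85-fold and 39.6-fold. The first was higher in shCtrl and the second in shNAT10. Further shCtrl peaks, of 109-fold in coding sequence and 20.8-fold mostly on other exons, had no shNAT10 counterpart.

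On the receptors, the TGFBR1 peak in the 3′ untranslated region (chr9:99149710-99149949) had a fold enrichment of 643 in shCtrl and overlapped a longer shNAT10 peak of 28.3-fold. A further shNAT10 peak of TGFBR1, of 179-fold, had no shCtrl counterpart. The printed TGFBR1 stretch belonged to peaks of 74.5-fold in shCtrl and 51.3-fold in shNAT10. The TGFBR2 peaks were weak in both lists, at 14.7 and 6.06 in shCtrl and from 1.92 to 11.6 in shNAT10. The printed TGFBR2 coding stretch had 6.06-fold in shCtrl and 2.57-fold in shNAT10. The TGFBR2 peaks of 14.7-fold in shCtrl and of 11.6 and 1.92-fold in shNAT10 had no counterpart in the other list. The LTBP1 stretch had 15.5-fold in shCtrl and 33.4-fold in shNAT10. Other LTBP1 peaks, of 30.3-fold in shCtrl and of 19.3, 4.84 and 4.22-fold in shNAT10, had no counterpart in the other list.

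SMAD3 had its only shCtrl peak across the end of the coding sequence (chr15:67187466-67190549, 165 of 181 bases coding, 12.6-fold). The shNAT10 list had no peak there, and its 3 SMAD3 peaks, of 3.05, 3.96 and 4.86-fold, lay in the 3′ untranslated region. SMAD7 had 1 peak in each list, at different places in the 3′ untranslated region, of 14.0-fold in shCtrl and 1430-fold in shNAT10. SMAD2 likewise had a 1540-fold shNAT10 peak in the 3′ untranslated region with no shCtrl counterpart. Its strongest shCtrl peak, of 136-fold on an exon outside the longest coding transcript, had no shNAT10 counterpart. The printed SMAD2 coding stretch of 30 bases had 8.78-fold in shCtrl and 3.26-fold in shNAT10. No peak of TGFBI or SKIL was shared between the lists.

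The median fold enrichment of the peaks on these genes was 21.2 in shCtrl and 15.8 in shNAT10, against 49.3 and 45.2 over the whole lists of 16892 and 15813 peaks. Set beside the RNA, the genes with higher RNA in shNAT10 (TGFBR1, TGFBR2, LTBP1) had more peaks in shNAT10 than in shCtrl, and SMAD3, with lower RNA, also had more. The part of RNA level in these peak counts was not tested.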

How the data were processed

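RNA-seq (3 shCtrl and 3 shNAT10 libraries) and acRIP-seq of PANC-1 cells were analysed. The authors deposited FPKM per gene, and for each group 1 acRIP peak list with a fold ratio of IP over input and a score, the log10 of the peak p-value. The submitters' processing notes name HISAT2 2, HTSeq 0.11.0, DESeq2 1.22.2 and GRCh38, without their roles; the peak caller is not given in the sources used here. FPKM were found to be per kilobase of the longest annotated transcript, since 97.3% of values above 0 then gave whole reads within 0.05; those reads served only to give depth and in 1 alternative fit.

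Genes reaching an FPKM of 1 in 3 or more libraries were tested with limma 3.58.1 (R 4.3.3) on log2(FPKM + 0.1), which understates changes of low genes, letting the variance follow mean expression and adjusting p over 12982 genes by Benjamini-Hochberg. The script was tested on simulated data. The threshold for a call was an adjusted p of 0.05, and fold changes are shNAT10 over shCtrl. Single genes were also given an exact permutation test. Peak starts were converted to 1-based positions and peaks were mapped to GENCODE release 29; sharing needed at least 1 base on the same strand. Figures were drawn with matplotlib 3.10.9.

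The 10 genes and the pathway and marker lists were chosen with earlier results of these data known. Named genes are all 10, NAT10, SMAD4, up to 4 called pathway genes per role with the largest absolute change, and the 3 genes nearest in profile to the largest rise and fall. A gene that this rule names among the targets is not reported here. Alternatives were another pseudocount, filters, scaling, TPM, a replicate block, no trend, voom on recovered reads, each library left out and, added after seeing the data, a spline correction for transcript length.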

Additional observations from a re-analysis of the deposited data

How the results depend on the processing

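Across the 16 alternative fits, TGFBR1 and LTBP1 kept direction and call, as did NAT10; the pathway counts ran from 20 to 31 lower and from 10 to 17 higher. The count of lower genes among the 10, reported as 2, was 1 without a filter on low values, with quantile normalization, without the mean-variance trend and with the replicate block, in each case SMAD3, and 0 with TPM; leaving out a library gave 1 to 4, with 4 without shCtrl replicate 2 (SMAD2 and SKIL added). The count of higher genes among the 10 ran from 2 to 3. Calls over all tested genes moved too, from 5450 of 12982 in the main fit to 6621 without shCtrl replicate 2 and 5884 without shCtrl replicate 1. Leaving out shCtrl replicate 3 or a shNAT10 library gave 3550 to 3870, and the length correction gave 6352 of 12956. Leaving out a library moved TGFB1 between -0.048 (without shCtrl replicate 1) and 0.075 (without shCtrl replicate 2), with -0.031 without shNAT10 replicate 1. SMAD2 was not tested at a minimum of 5 FPKM. Same-numbered libraries of the groups had deviations correlated at -0.04, 0.06 and 0.11, so the numbers were not taken to pair the samples, and under the replicate block, of the 10 genes, only TGFBI lost its call (adjusted p = 0.0661 in limma). Restricting each list to its upper 50% by fold enrichment left 3 genes with a peak in shCtrl and 4 in shNAT10. Keeping the 50% of peaks with the lowest p-value left 7 in each, with SMAD3 only in shCtrl and SMAD7 only in shNAT10. A reciprocal overlap of 50% left 4 shared peaks in shCtrl and 4 in shNAT10. The cause of these changes was not tested. Depth limits SMAD7 and TGFB1 most, with 476 to 888 reads per library.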
